A study of Mus musculus with 28 samples.

Results

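Disallowed genes are genes that most tissues express and that mature pancreatic β cells keep at a low level. The 10 described here were Ldha, Slc16a1, Oat, Acot7, Pdgfra, Tpm2, Igf1, Igfbp4, Cxcl12 and Fcgrt, chosen by gene symbol from the 14219 genes in the deposited expression table. All 10 were listed and all 10 were among the 13591 genes that passed the filter on low values. Islets of 28 male mice aged 10 to 12 weeks, on a mixed C57Bl6 and 129sv background, were sequenced as 1 poly(A) library per mouse. The 4 labelled groups were βKlf6KO after S961 (8 mice), control after S961 (8 mice), βKlf6KO after saline (6 mice) and control after saline (6 mice). Klf6, which encodes a zinc finger transcription factor, was floxed on both alleles in every mouse, controls included. βKlf6KO mice also carried Cre recombinase in place at 1 Ins1 allele, so that it acts in β cells, and control mice had intact Ins1 alleles and no Cre. S961 is a peptide that blocks the insulin receptor, and the sources used here give neither its dose nor its duration. From each mouse 120 to 150 islets were released with Liberase, picked by hand and cultured overnight. The labels name the study's question as which islet genes differ between the genotypes under each treatment, and the question asked here was whether the disallowed genes differed and whether they followed stromal or immune RNA.

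Lactate dehydrogenase A, the product of Ldha, turns pyruvate into lactate, and the monocarboxylate transporter encoded by Slc16a1 carries pyruvate and lactate across the cell membrane. Their low level in β cells ties insulin release to glucose, and in humans gain of SLC16A1 expression in β cells is known to cause insulin release during exercise. The other genes are known as disallowed from comparisons of mouse islets with other tissues, and several of them are strongly expressed by the fibroblasts, endothelial cells and immune cells that an islet preparation also holds. In bulk islet RNA, fewer cells of a type and less RNA per cell cannot be told apart, and a change in β cells cannot be told apart from a change in the other cells.

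Each library held between 28868638 and 45001633 reads over the listed genes. Klf6 RNA did not follow the genotype labels: it averaged 7.22 ± 0.51 log2 CPM (read counts scaled to library size, on a log2 scale) in βKlf6KO and 6.94 ± 0.72 in control islets after S961 (SD, n = 8 each). After saline it averaged 6.97 ± 0.26 in βKlf6KO and 7.0 ± 0.42 in control islets (SD, n = 6 each). The differences were 0.28 ± 0.25 (SE, adjusted p = 0.517) and -0.03 ± 0.29 (adjusted p = 0.974), so βKlf6KO and control are used here as names of labelled groups. Ins1, with Cre in place at 1 allele in βKlf6KO mice, did not follow the labels detectably either. Its difference was -0.31 after S961 (adjusted p = 0.674) and 0.55, higher in βKlf6KO islets, after saline (adjusted p = 0.712). Ins2 was at 0.31 (adjusted p = 0.752) and 0.21 (adjusted p = 0.930). β-cell markers were present at a high level in every library, summing to between 61154 and 227819 CPM. RNA of the digestive (acinar) pancreas was also high, at 22666 to 97259 CPM in βKlf6KO and 4053 to 34967 CPM in control islets after S961. After saline it was 15058 to 38930 CPM in βKlf6KO and 11786.5 to 39519 CPM in control islets. A single principal component, the first, took up 54.9% of the variance over all genes, its gene loadings had a Spearman correlation with transcript GC content of -0.845, and 3 libraries, control S961 replicates 2 and 8 and control saline replicate 4, stood highest on it. In the same 3 libraries, RNA of the insulin gene Ins2 was lower than in any other library. It was 12.31 and 13.57 log2 CPM in control S961 replicates 2 and 8, where the group median was 15.69. In control saline replicate 4 it was 13.16, where the group median was 16.30. For several genes the results are also given without those 3 libraries. The lane number in the sample descriptions, 4 to 7, is used as the batch.

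Per kilobase of exon, the 10 genes ranged from above most islet transcripts to near the bottom of the table. Ldha had the highest mean level over 28 libraries, 3.64 log2 CPM per kilobase, higher than 77.1% of tested genes. Oat followed at 2.44, Cxcl12 at 1.68, Acot7 at 0.59 and Slc16a1 at 0.45 log2 CPM per kilobase. Tpm2 was at -1.07, Igf1 at -1.26, Fcgrt at -1.35, Igfbp4 at -1.45 and Pdgfra at -2.24 log2 CPM per kilobase, the last above only 3.42% of tested genes. Ldha was above Oat in 27 of 28 libraries, by 1.20 ± 0.57 (mean and SD of the per-library log2 difference), Oat was above Cxcl12 in 26, Cxcl12 above Acot7 in 27 and Slc16a1 above Tpm2 in 27. Acot7 and Slc16a1 did not differ beyond their spread, with a mean difference of 0.14 ± 0.93 log2 units, nor did any neighbours among Tpm2, Igf1, Fcgrt and Igfbp4, whose differences lay between 0.08 and 0.20, nor Igfbp4 and Pdgfra, at 0.79 ± 0.92.

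The genes also varied among mice to different extents. Within labelled groups Pdgfra had an SD of 1.47 log2 units, larger than that of 99.4% of tested genes, and Igfbp4 one of 0.95, larger than 95.6%. Acot7 had an SD of 0.84, Ldha 0.69, Tpm2 and Cxcl12 0.68, Fcgrt 0.65, Slc16a1 0.54 and Igf1 0.51. Oat varied least, with an SD of 0.26, larger than that of only 27.8% of tested genes. Fcgrt was below 1 CPM in 19 libraries, Igfbp4 in 8, Pdgfra and Tpm2 in 6 each and Acot7 in 1. βKlf6KO S961 replicate 8 held the highest value of 5 genes and βKlf6KO saline replicate 6 that of 4, while control S961 replicate 2, which stands apart on the first component, held the lowest value of 5.

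**Figure D1:**
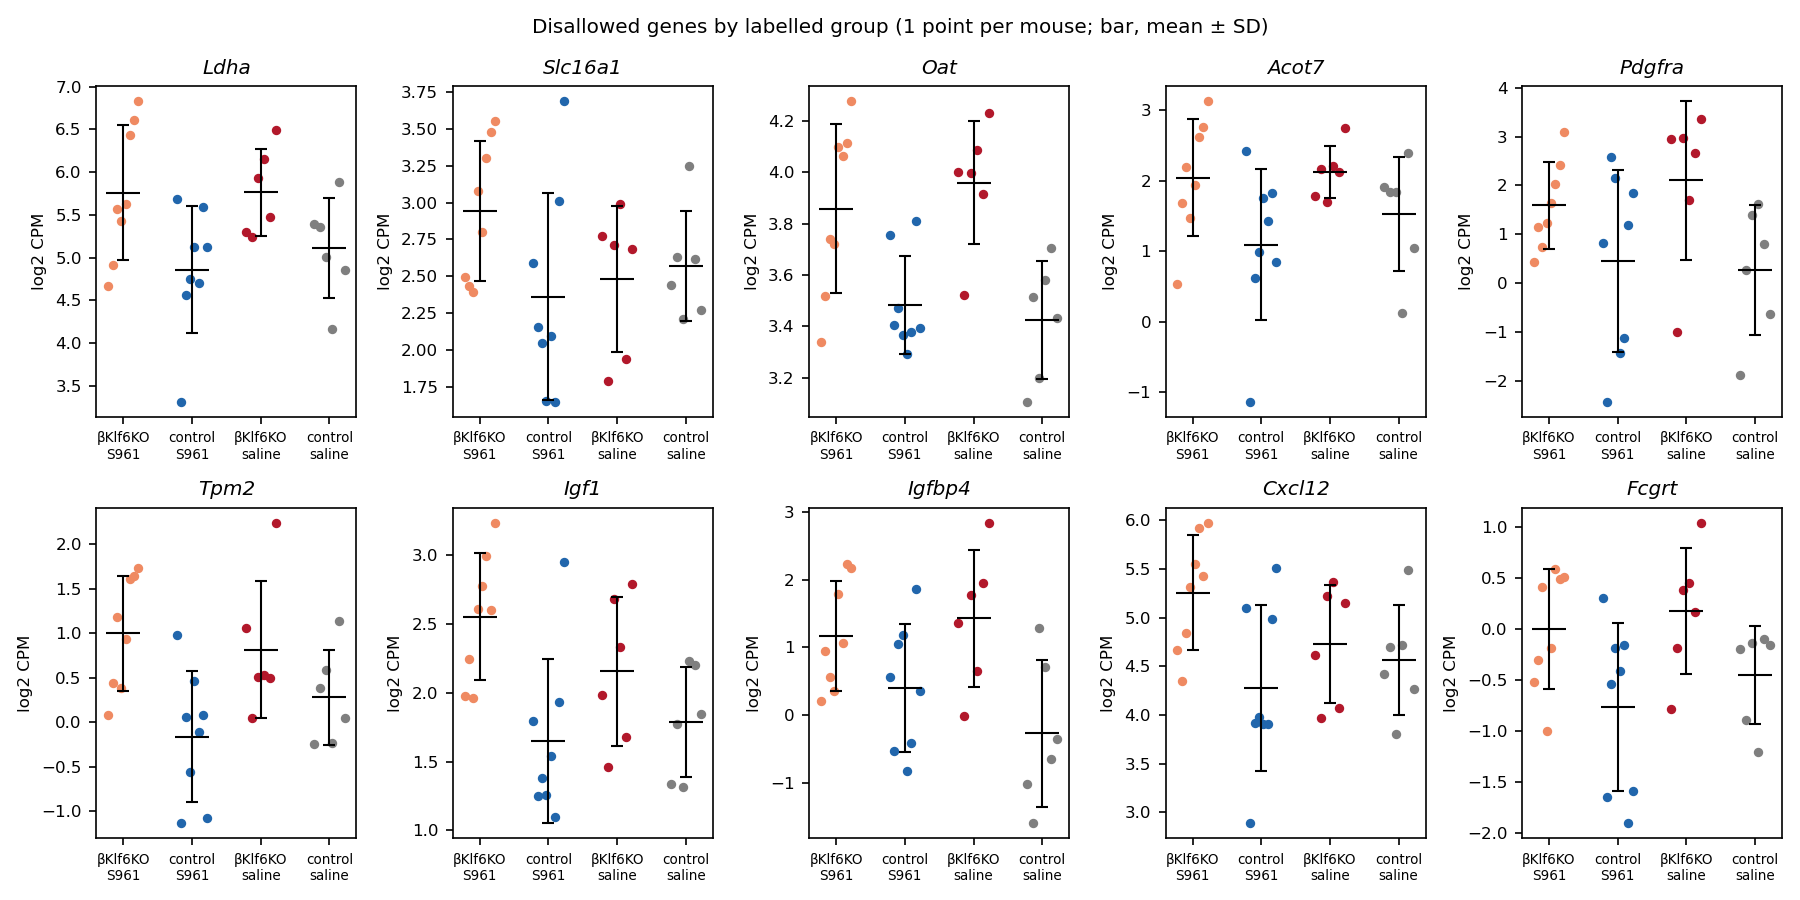
Level of each of the 10 genes in log2 CPM (vertical axes) by labelled group, with 1 point per mouse and bars for the mean and SD (n = 8 each after S961, n = 6 each after saline). βKlf6KO and control points overlap in every panel, and Oat spans the shortest axis, from 3.11 to 4.28 log2 CPM.

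The 250 bases upstream of the RefSeq start were read for short elements that these genes do and do not share. The 4 promoters printed are those of the pyruvate and lactate pair, of Oat, the gene called after saline, and of Cxcl12, which carries the most GC boxes. The sequences are from RefSeq on GRCm38.p6, 5′ to 3′ on the gene's strand. Capitals mark GGGCGG (the GC box), CACCC and ACGTG (the core of the hypoxia response element), searched on both strands and allowed to share bases. GC boxes and CACCC elements are the kind of sequence that KLF and SP family zinc finger proteins are known to bind.
Ldha, chr7:46845554-46845803, plus strand: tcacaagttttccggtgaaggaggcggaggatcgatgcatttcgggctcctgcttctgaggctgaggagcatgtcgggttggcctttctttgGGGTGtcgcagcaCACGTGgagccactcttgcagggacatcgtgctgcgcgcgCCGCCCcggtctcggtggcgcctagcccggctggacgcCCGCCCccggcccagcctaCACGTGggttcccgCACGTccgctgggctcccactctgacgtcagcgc
Slc16a1, chr3:104638414-104638663, plus strand: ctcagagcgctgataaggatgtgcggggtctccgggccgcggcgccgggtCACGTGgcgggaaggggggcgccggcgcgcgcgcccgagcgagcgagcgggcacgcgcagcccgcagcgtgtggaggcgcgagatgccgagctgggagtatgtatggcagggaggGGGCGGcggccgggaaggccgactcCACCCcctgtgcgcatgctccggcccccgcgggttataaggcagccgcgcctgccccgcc
Oat, chr7:132576399-132576648, minus strand: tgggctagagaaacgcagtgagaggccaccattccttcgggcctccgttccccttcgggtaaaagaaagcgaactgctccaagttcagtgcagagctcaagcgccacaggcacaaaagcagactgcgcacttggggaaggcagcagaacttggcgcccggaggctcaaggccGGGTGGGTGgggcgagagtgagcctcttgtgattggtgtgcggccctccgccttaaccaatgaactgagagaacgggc
Cxcl12, chr6:117168285-117168534, plus strand: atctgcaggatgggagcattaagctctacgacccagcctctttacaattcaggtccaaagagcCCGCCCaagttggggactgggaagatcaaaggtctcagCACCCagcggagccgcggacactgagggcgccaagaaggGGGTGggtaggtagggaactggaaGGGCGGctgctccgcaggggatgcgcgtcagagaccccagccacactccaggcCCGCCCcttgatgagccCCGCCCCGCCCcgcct

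Cxcl12 held 5 GC boxes and 2 CACCC elements, Ldha 2 and 1, Slc16a1 1 and 1, and Oat 0 and 2. ACGTG occurred 5 times in Ldha and 2 times in Slc16a1, counting each strand so that a palindromic CACGTG counts on both, and in no other window of the 10 genes. All 10 genes had an entry in the RefSeq table. Ldha had a second one, chr7:46846832-46847081 on the plus strand, with 0 GC boxes, 0 CACCC elements and 0 ACGTG. The first Ldha window is the one printed and counted here. Among the 10, 5 held a GC box, against 56.2% of 13155 promoters of tested genes, 9 held CACCC, against 57.6%, and 2 held ACGTG, against 21.4%. By GENCODE exons, not every window lay upstream of its gene. The Igf1 window, the only counted one without CACCC, lay with all 250 bases in exons of Igf1. For Tpm2, 106 bases of the window lay in exons of the gene, and for Fcgrt 29. Both Ldha windows and the Acot7 window lay outside exons but inside the annotated span of their gene, downstream of its GENCODE start. A match is a description of the letters and not a bound site.

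After S961, Igf1 and Tpm2 were higher in βKlf6KO than in control islets, and the other 8 genes did not pass the test, although all 10 differences were positive. Igf1 encodes insulin-like growth factor 1, and Tpm2 encodes β-tropomyosin, an actin-binding protein of smooth muscle and myofibroblasts. Calls were made at an adjusted p below 0.05 over all 13591 genes in limma, a linear model for expression values. Of all genes 4.36% were called in this comparison, 2.35% of them higher, so 2 called of 10 stand beside a background of 2.35%. The median difference of the 10 genes was 0.90 log2 units, beside 0.02 for all tested genes, and 8 of the 10 had an unadjusted p below 0.05. None of the 10 had groups that did not overlap, beside 0.103% of all genes with every βKlf6KO library higher and 0.28% with every one lower.

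After saline, Oat alone was higher in βKlf6KO islets. Oat encodes ornithine aminotransferase, a mitochondrial enzyme that links ornithine to glutamate and proline. In this comparison 2.78% of all genes were called, 2.09% higher and 0.692% lower, and 1 of the 10 was called. Again none of the 10 had groups that did not overlap, beside 2.46% of all genes with every βKlf6KO library higher and 1.64% with every one lower. The median difference was 0.56 log2 units, beside -0.0005 for all tested genes, 9 differences were positive and 3 had an unadjusted p below 0.05. That a gene passed after 1 treatment and not after the other is not a test of a difference between treatments. The test of that difference, given with the S961 comparisons, called no gene.

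**Figure D2:**
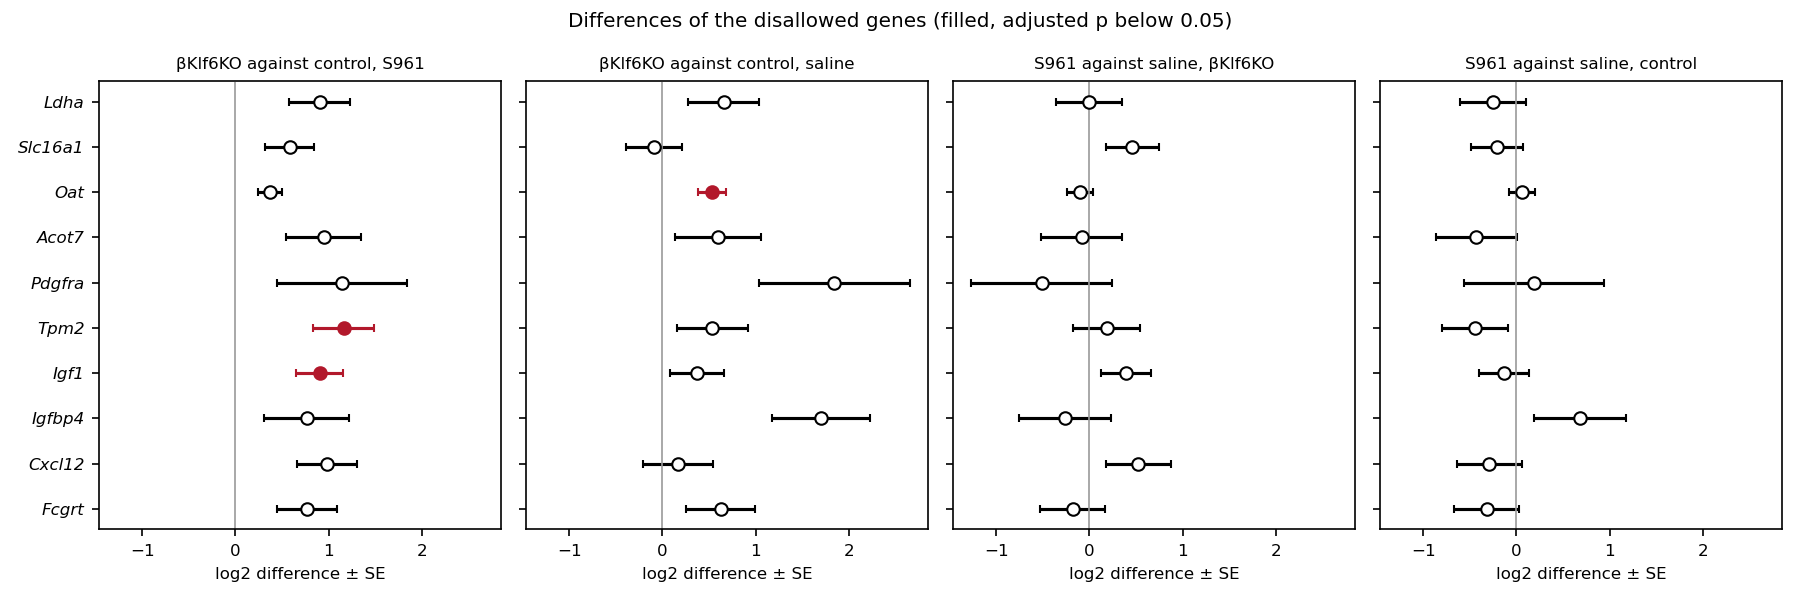
Log2 difference and its SE (horizontal axes) for each of the 10 genes in 4 comparisons, with filled points for an adjusted p below 0.05. After S961 all 10 genotype differences lie right of 0, with Tpm2 and Igf1 filled, after saline 9 do, with Oat filled, and the S961 differences lie on both sides of 0.

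Ldha (ENSMUSG00000063229, chr7:46841475-46855627 on GRCm38, plus strand) ranged from 4.66 to 6.83 log2 CPM with a median of 5.60 in βKlf6KO islets after S961. In control islets after S961 it ranged from 3.31 to 5.68 with a median of 4.94. The groups overlapped, with 3 of 8 βKlf6KO libraries above the highest control. The difference was 0.90 ± 0.33 (SE, adjusted p = 0.101), and within lanes 4 to 7 it was -0.17, 1.05, 1.37 and 1.37. After saline Ldha ranged from 5.24 to 6.5 with a median of 5.71 in βKlf6KO islets and from 4.16 to 5.89 with a median of 5.18 in control islets. Again 3 βKlf6KO libraries, here of 6, lay above the highest control, and the difference was 0.66 ± 0.38 (adjusted p = 0.465), or -0.08, 0.58, 1.13 and 1.13 within lanes. Neither difference passed the test. Without the 3 libraries that stand apart they were 0.69 after S961 (adjusted p = 0.163) and 0.47 after saline (adjusted p = 0.521).

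Slc16a1 (ENSMUSG00000032902, chr3:104638668-104658462, plus strand) ranged from 2.39 to 3.55 log2 CPM with a median of 2.94 in βKlf6KO islets after S961, and from 1.65 to 3.69 with a median of 2.13 in control islets. All 8 βKlf6KO libraries were above the control mean, but 1 control library, replicate 8, held the highest value of all 28. The difference was 0.58 ± 0.26 (adjusted p = 0.182), with within-lane values of 0.66, 0.49, 1.0 and 0.17. Without the 3 libraries that stand apart it was 0.77 (adjusted p = 0.0504). After saline the gene ranged from 1.79 to 2.99 with a median of 2.70 in βKlf6KO islets and from 2.21 to 3.25 with a median of 2.53 in control islets. The saline groups lay on top of each other, and the difference was -0.09 ± 0.30 (adjusted p = 0.933), the only negative one among the 20 genotype differences.

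Other genes of the pyruvate and lactate route were read beside this pair. Of 19 tested genes of glycolysis and pyruvate or lactate handling, 0 passed in either genotype comparison, and their median difference was 0.17 after both treatments. The smallest p values belonged to Mpc1, a subunit of the mitochondrial pyruvate carrier, at -0.17 after S961 (adjusted p = 0.182), and to Slc16a3, a lactate exporter, at 1.26 after saline (adjusted p = 0.143). Of 9 tested hypoxia-response genes 0 passed after S961, where Car9, a carbonic anhydrase, was at 1.43 (adjusted p = 0.0718). After saline 1 of the 9 was higher, Egln3, an oxygen-sensing prolyl hydroxylase, at 1.12 (adjusted p = 0.0240).

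Oat (ENSMUSG00000030934, chr7:132557478-132576398, minus strand) ranged from 3.52 to 4.23 log2 CPM with a median of 4.0 in βKlf6KO islets after saline, and from 3.11 to 3.71 with a median of 3.47 in control islets. In all, 5 of 6 βKlf6KO libraries lay above every control library. The difference was 0.54 ± 0.15, or 1.45-fold (adjusted p = 0.0481), and it was positive in every lane, at 0.69, 0.56, 0.44 and 0.64 in lanes 4 to 7. The call was close to the threshold: leaving out any of 18 single libraries ended it, with adjusted p values up to 0.141, the highest without βKlf6KO saline replicate 6. Those 18 were βKlf6KO saline replicates 1, 3, 4, 5 and 6, control saline 1, 2, 3 and 6, βKlf6KO S961 3 to 7 and control S961 3, 4, 5 and 8. Without the 3 libraries that stand apart, the difference was 0.57 (adjusted p = 0.0376).

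After S961, Oat ranged from 3.34 to 4.28 log2 CPM with a median of 3.90 in βKlf6KO islets and from 3.29 to 3.81 with a median of 3.40 in control islets. The difference was 0.37 ± 0.13, or 1.30-fold (adjusted p = 0.0840), with 4 of 8 βKlf6KO libraries above the highest control. Within lanes it was -0.03, 0.46, 0.48 and 0.59. Without βKlf6KO S961 replicate 1 it passed at 0.45 (adjusted p = 0.0378). Of 7 other tested genes of ornithine and proline metabolism, 0 passed after either treatment, the nearest being Ass1, an enzyme of arginine synthesis, at 0.66 after S961 (adjusted p = 0.111) and Pycr1, a proline-synthesis enzyme, at 0.45 after saline (adjusted p = 0.108).

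Acot7 (ENSMUSG00000028937, chr4:152178134-152271855, plus strand) encodes a cytosolic acyl-CoA thioesterase. After S961 it ranged from 0.53 to 3.13 log2 CPM with a median of 2.06 in βKlf6KO islets and from -1.14 to 2.42 with a median of 1.21 in control islets, a difference of 0.95 ± 0.40 (adjusted p = 0.159). Within lanes it was -0.70, 1.5, 1.38 and 1.61, so lane 4 went the other way. After saline Acot7 ranged from 1.70 to 2.75 with a median of 2.14 in βKlf6KO islets and from 0.13 to 2.39 with a median of 1.84 in control islets, a difference of 0.59 ± 0.46 (adjusted p = 0.641). The differences were 0.53 and 0.31 without the 3 libraries that stand apart. The lowest value, -1.14, was that of control S961 replicate 2, which stands highest on the first component. Of 8 other tested acyl-CoA thioesterases, 2 were higher after S961, Acot2 at 0.72 (adjusted p = 0.0321) and Acot1 at 0.86 (adjusted p = 0.0329), whose near-identical sequences can share reads. After saline 0 passed, and Acot11 had the smallest p, at -0.21 (adjusted p = 0.597).

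Igf1 (ENSMUSG00000020053, chr10:87858265-87937042, plus strand) ranged from 1.96 to 3.24 log2 CPM with a median of 2.61 in βKlf6KO islets after S961, and from 1.09 to 2.95 with a median of 1.46 in control islets. All 8 βKlf6KO libraries were above the control mean and 7 of 8 control libraries were below the lowest βKlf6KO library, the exception being replicate 8. The difference was 0.90 ± 0.25, or 1.87-fold (adjusted p = 0.0399), and it was positive in every lane, at 0.77, 1.12, 1.24 and 0.48. Leaving out any of 9 single libraries, βKlf6KO S961 replicates 5 to 8 or control S961 replicates 2 to 6, ended the call, with adjusted p values of 0.0529 to 0.0913. Without the 3 libraries that stand apart, replicate 8 among them, it was 1.05 (adjusted p = 0.00958). After saline Igf1 ranged from 1.46 to 2.80 with a median of 2.16 in βKlf6KO islets and from 1.31 to 2.23 with a median of 1.81 in control islets, and its difference of 0.37 ± 0.29 did not pass (adjusted p = 0.639).

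Igfbp4 (ENSMUSG00000017493, chr11:99041244-99054392, plus strand) encodes a secreted protein that binds IGF1 and keeps it from its receptor. After S961 it ranged from 0.21 to 2.24 log2 CPM with a median of 1.0 in βKlf6KO islets and from -0.84 to 1.86 with a median of 0.46 in control islets, and the difference of 0.76 ± 0.46 did not pass (adjusted p = 0.320). After saline it ranged from -0.02 to 2.84 with a median of 1.57 in βKlf6KO islets and from -1.60 to 1.28 with a median of -0.51 in control islets. There 4 of 6 βKlf6KO libraries lay above the highest control and the difference was 1.70 ± 0.53, or 3.25-fold, but it did not pass (adjusted p = 0.0819). With values under 1 CPM raised to 1 CPM it was 1.10. Within lanes it was 2.67, -0.40, 0.62 and 2.75. It passed without βKlf6KO saline replicate 2 (1.99, adjusted p = 0.0315), without control saline replicate 3 (2.01, adjusted p = 0.0446) and without the 3 libraries that stand apart (1.90, adjusted p = 0.0434). Of 10 other tested genes of the IGF system, 1 passed after S961: Igf1r, the IGF1 receptor, was lower, at -0.43 (adjusted p = 0.0194). After saline Igf1r was at -0.41 (adjusted p = 0.0515) and 0 passed.

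Pdgfra (ENSMUSG00000029231, chr5:75152292-75198215, plus strand) encodes platelet-derived growth factor receptor α, a fibroblast-lineage marker that was kept out of the fibroblast list used here. It showed the widest scatter, from 0.43 to 3.09 log2 CPM with a median of 1.44 in βKlf6KO islets after S961 and from -2.43 to 2.57 with a median of 1.01 in control islets. After saline it ranged from -1.01 to 3.35 with a median of 2.80 in βKlf6KO islets and from -1.89 to 1.62 with a median of 0.53 in control islets, and 5 of 6 βKlf6KO libraries were above the highest control. The differences were 1.15 ± 0.70 after S961 (adjusted p = 0.331) and 1.84 ± 0.81 after saline (adjusted p = 0.270), and neither passed. The S961 difference was 0.52 with values under 1 CPM raised to 1 CPM and 0.69 with quantile scaling. Without the 3 libraries that stand apart the differences were 0.90 after S961 and 2.12 after saline. With every library in, the within-lane differences were -0.65, 3.34, 0.66 and 1.24 after S961 and 3.76, -0.41, 0.48 and 3.65 after saline. Of 6 other tested genes of the PDGF system 0 passed, and Pdgfc, a ligand of this receptor, was at 0.60 (adjusted p = 0.132) and 0.67 (adjusted p = 0.218).

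Cxcl12 (ENSMUSG00000061353, chr6:117168535-117181367, plus strand) encodes a chemokine of stromal and endothelial cells that acts through the receptor Cxcr4. After S961 it ranged from 4.35 to 5.98 log2 CPM with a median of 5.37 in βKlf6KO islets and from 2.89 to 5.51 with a median of 3.95 in control islets. All 8 βKlf6KO libraries were above the control mean, and 5 of 8 controls were below the lowest βKlf6KO library. The difference was 0.98 ± 0.32, or 1.98-fold (adjusted p = 0.0712), and within lanes it was 0.45, 1.55, 1.47 and 0.45. It did not pass with every library in, and it passed without control S961 replicate 8 (1.16, adjusted p = 0.0303) or replicate 1 (1.10, adjusted p = 0.0470). After saline Cxcl12 ranged from 3.97 to 5.37 with a median of 4.88 in βKlf6KO islets and from 3.80 to 5.49 with a median of 4.56 in control islets, a difference of 0.17 ± 0.37 (adjusted p = 0.899). Of the 3 genes tested for binding or cleaving CXCL12, 0 passed, with Dpp4, a peptidase that cuts it, at -0.25 after S961 (adjusted p = 0.440) and Cxcr4 at 0.39 after saline (adjusted p = 0.171).

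Tpm2 (ENSMUSG00000028464, chr4:43514711-43523765, minus strand) ranged from 0.08 to 1.73 log2 CPM with a median of 1.05 in βKlf6KO islets after S961, and from -1.14 to 0.98 with a median of -0.02 in control islets. All 8 βKlf6KO libraries were above the control mean and 4 were above every control. The difference was 1.16 ± 0.33, or 2.24-fold (adjusted p = 0.0457), the largest of the 10 after S961. Within lanes 4 to 7 it was 0.02, 1.02, 1.42 and 2.19. Leaving out any of 18 single libraries ended the call, with adjusted p values of 0.0506 to 0.102: βKlf6KO S961 replicates 3, 5, 6, 7 and 8, control S961 2, 3, 4, 5 and 8, βKlf6KO saline 1, 3, 4 and 5, and control saline 1, 2, 3 and 6. Without the 3 libraries that stand apart it was 0.85 (adjusted p = 0.116). After saline Tpm2 ranged from 0.05 to 2.24 with a median of 0.52 in βKlf6KO islets and from -0.24 to 1.14 with a median of 0.22 in control islets, a difference of 0.53 ± 0.38 (adjusted p = 0.601). Among the 3 other tropomyosin genes, Tpm1 was also higher after S961, at 0.70 (adjusted p = 0.0403), and after saline 0 passed, with Tpm3 at 0.08 (adjusted p = 0.879).

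Fcgrt (ENSMUSG00000003420, chr7:45092990-45103851, minus strand) encodes the heavy chain of the neonatal Fc receptor, which salvages IgG and albumin and is prominent in macrophages and endothelium. After S961 it ranged from -1.0 to 0.59 log2 CPM with a median of 0.12 in βKlf6KO islets and from -1.90 to 0.30 with a median of -0.47 in control islets, a difference of 0.77 ± 0.32 (adjusted p = 0.156). After saline it ranged from -0.78 to 1.04 with a median of 0.27 in βKlf6KO islets and from -1.21 to -0.10 with a median of -0.17 in control islets, a difference of 0.63 ± 0.37 (adjusted p = 0.490). In each treatment 4 βKlf6KO libraries lay above the highest control. With values under 1 CPM raised to 1 CPM, which touches 19 libraries, the differences were 0.21 and 0.34, with quantile scaling 0.21 and 0.18, and without the 3 libraries that stand apart the S961 difference was 0.48. Within lanes the difference was -0.82, 0.79, 0.85 and 2.24 after S961 and -0.24, 0.24, 1.10 and 0.76 after saline. B2m, the light chain that pairs with Fcgrt, was at 0.18 (adjusted p = 0.634) after S961 and 0.46 (adjusted p = 0.429) after saline. Pdgfra, Igf1, Acot7 and Fcgrt each overlap at least 1 annotated gene on the opposite strand. Slc16a1, Oat, Pdgfra and Acot7 each overlap at least 1 on the same strand. The sources used here do not say how strand was used in counting, and these genes may hold reads of their neighbours.

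Over the 4 lanes, 34 of the 40 within-lane differences of the 10 genes were positive after S961, and 34 of 40 after saline. Each lane held few libraries of each group, so these values carry no test. The share of positive values over all tested genes was not taken. Many of the 10 genes were correlated with each other, so the 40 values are not independent. A further 14 genes that are also reported as kept low in β cells, Hk1 and Yap1 among them, were set beside the 10. Of these 0 passed in either comparison, and the differences were positive for 14 after S961 and 11 after saline, with medians of 0.59 and 0.36. The smallest p values were those of Yap1, a growth-control coactivator, at 0.77 after S961 (adjusted p = 0.0557) and of Maf, a transcription factor of macrophages and α cells, at 1.95 after saline (adjusted p = 0.0608). Of 10 genes for known repressors or inducers of disallowed genes 0 passed, with Myc at 0.71 after S961 (adjusted p = 0.0735) and Dnmt3a, a DNA methyltransferase, at -0.33 after saline (adjusted p = 0.116).

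S961 against saline gave no call for any of the 10 genes in either genotype. Among all 13591 genes limma called 0 (0%) in βKlf6KO and 0 (0%) in control islets, with 413 and 104 genes at an unadjusted p below 0.05, and 0 of the 10 were among either. None of the 10 had groups that did not overlap, beside 0.0809% of all genes wholly higher and 0.191% wholly lower after S961 in βKlf6KO islets, and 0.00736% and 0% in control islets. With values below 1 CPM raised to 1 CPM, 11 genes were lower after S961 in βKlf6KO islets, and with library weights 2 were, none of them among the 10. In βKlf6KO islets the 10 differences ran from -0.51 for Pdgfra to 0.52 for Cxcl12 with a median of -0.04, and the lowest adjusted p was 0.9997. In control islets they ran from -0.44 for Tpm2 to 0.68 for Igfbp4 with a median of -0.23, and the lowest adjusted p was 0.973. The genotype comparisons and these share libraries. The S961 response in βKlf6KO islets minus that in control islets ran from -0.94 for Igfbp4 to 0.82 for Cxcl12, with a median of 0.30, and 0 of 13591 genes (0%) were called, with 350 at an unadjusted p below 0.05 and 0 of the 10 among them.

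The 10 genes did not all vary together from mouse to mouse. After the labelled group means were removed, 43 of the 45 pairs had a positive Pearson correlation over 28 libraries, with a median of 0.467. Over all other tested genes, 49.4% of correlations with the 10 were positive and their median was -0.0059, and the share of tested genes that followed the first gene of a pair at least as closely as the second had a median of 10.8% over the 45 pairs. Ldha and Acot7 were the closest pair (r = 0.8997, Spearman rho = 0.871, each with a permutation p of 1e-05, the smallest that 100000 permutations can give). Without the 2 libraries farthest from the median r was 0.857, and within lanes 4 to 7 it was 0.99, 0.84, 0.90 and 0.91. Only 0.50% of tested genes followed Ldha at least as closely as Acot7 did. Slc16a1, Igf1 and Cxcl12 also varied together, but not as a separate set. Cxcl12 had r = 0.783 with Slc16a1 (permutation p = 2e-05) and 0.770 with Ldha (permutation p = 2e-05). Slc16a1 and Igf1 had r = 0.863 (permutation p = 1e-05) and rho = 0.826 (permutation p = 1e-05), 0.799 without the 2 farthest libraries, and 0.76, 0.89, 0.90 and 0.84 within lanes. Igf1 and Cxcl12 had r = 0.848 (permutation p = 1e-05) and rho = 0.863 (permutation p = 1e-05), 0.832 without the 2 farthest libraries, and 0.87, 0.87, 0.87 and 0.92 within lanes. A further pair was Pdgfra and Igfbp4, with r = 0.779 (permutation p = 1e-05) and rho = 0.814 (permutation p = 1e-05), 0.778 without the 2 farthest libraries, and 0.71, 0.92, 0.88 and 0.46 within lanes; 0.0294% of tested genes followed Pdgfra at least as closely. The negative pairs were Slc16a1 with Fcgrt (r = -0.237, permutation p = 0.302; rho = -0.183, permutation p = 0.399) and Igf1 with Fcgrt (r = -0.022, permutation p = 0.923; rho = 0.053, permutation p = 0.799). These permutation p values are not adjusted over the 45 pairs, and genes of 1 library share its depth and base composition.

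Some stromal and immune markers were higher in βKlf6KO islets, while the summed level of each list overlapped between the labelled groups. Beside the counts of markers, 2.35% of all genes were called higher after S961 and 2.09% after saline. After S961 the 23 fibroblast and stellate-cell markers summed to 257 to 464 CPM in βKlf6KO and 169 to 303 CPM in control islets, and after saline to 173 to 511 CPM in βKlf6KO and 176 to 328 CPM in control islets. Of the 23, 11 were higher in βKlf6KO islets after S961, among them the collagen genes Col1a2 at 1.57 and Col3a1 at 1.40 and the smooth-muscle actin gene Acta2 at 1.80. After saline 2 were higher, Col3a1 at 1.44 and Col1a2 at 1.5. The 23 macrophage and antigen-presentation markers summed to 280 to 733 CPM in βKlf6KO and 239 to 390 CPM in control islets after S961, and to 267 to 1126 CPM in βKlf6KO and 190 to 277 CPM in control islets after saline. Of the 22 tested, 1 was higher after S961, Cd14 at 1.09, and 5 after saline, among them Csf1r, the receptor that maintains macrophages, at 1.12, Fcgr3 at 1.04 and H2-Aa at 1.34.

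Lymphocyte markers differed more from mouse to mouse. The 10 of 12 that were listed summed to 2.66 to 777 CPM in βKlf6KO and 2.26 to 265 CPM in control islets after S961, and to 4.93 to 506 CPM in βKlf6KO and 4.69 to 19.6 CPM in control islets after saline. Of the 7 tested, 0 passed after S961 and 2 were higher after saline, among them the B-cell gene Cd22 at 2.40. The 13 listed of 14 endothelial markers summed to 124 to 265 CPM in βKlf6KO and 176 to 247 CPM in control islets after S961, and to 155 to 227 CPM in βKlf6KO and 149 to 277 CPM in control islets after saline, and 0 passed in either comparison. No listed marker of these 4 lists was at 0 in all libraries of a group. β-cell identity genes went the other way, with 5 of 14 lower in βKlf6KO islets after S961, among them Pdx1 at -0.47, Slc30a8 at -0.49 and the glucose transporter gene Slc2a2 at -0.88, and 2 after saline, Nkx6-1 at -0.48 and Slc2a2 at -0.73. The summed β-cell markers overlapped, at 73380 to 157994 CPM in βKlf6KO and 61154 to 227819 CPM in control islets after S961, and at 102259 to 184622 CPM in βKlf6KO and 61500 to 178688 CPM in control islets after saline.

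Whether each gene followed these lists inside a group was asked with the group means removed, so that the genotype difference itself could not give a relation. Each gene's log2 CPM was fitted in limma on the mean log2 CPM of a list with the 4 group means in the fit, and the p of the slope was adjusted over all 13591 genes. Pearson and Spearman correlations of the deviations are given with permutation p values over 100000 permutations within groups, for 40 relations, and these p values are not adjusted. All 10 genes had a positive correlation with the fibroblast mean and with the macrophage mean, but 1 passed the slope test for the fibroblast mean, beside 1.03% of all genes, and 6 passed for the macrophage mean, beside 10.4%.

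**Figure D3:**
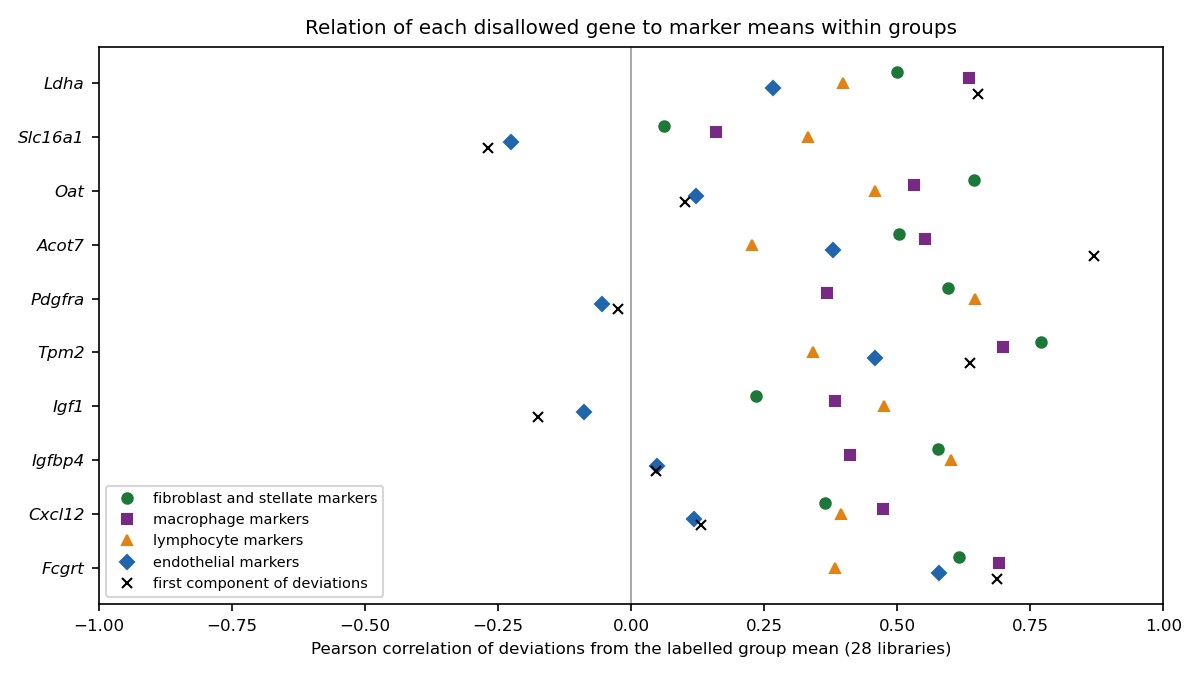
Pearson correlation (horizontal axis) between the deviation of each of the 10 genes from its labelled group mean and that of 4 marker-list means and the first principal component of deviations, over 28 libraries. Tpm2 reaches 0.769 with the fibroblast mean, Slc16a1 is at 0.062 with that mean, and Acot7 reaches 0.869 with the component of deviations, on which the 3 libraries that stand apart lie lowest.

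Tpm2 followed the fibroblast mean most closely, with r = 0.769 (permutation p = 2e-05) and rho = 0.669 (permutation p = 0.00041). Without the 2 libraries farthest from the median r was 0.716, and within lanes it was 0.77, 0.67, 0.58 and 0.90. The slope was 1.01 ± 0.18 log2 units of Tpm2 per log2 unit of the list mean (SE, adjusted p = 0.00158). Oat had r = 0.645 (permutation p = 0.00032) and rho = 0.560 (permutation p = 0.00391), 0.677 without the 2 farthest, and its slope of 0.32 ± 0.08 did not pass (adjusted p = 0.0548). Pdgfra had r = 0.595 (permutation p = 0.0041) and rho = 0.517 (permutation p = 0.0099), 0.655 without the 2 farthest, and its slope of 1.70 ± 0.45 did not pass (adjusted p = 0.0622). Its correlation stood in lanes 4 and 5, at 0.79 and 0.87, and was 0.11 and 0.12 in lanes 6 and 7. Igfbp4 had r = 0.577 (permutation p = 0.00287) and rho = 0.572 (permutation p = 0.00367), 0.579 without the 2 farthest (adjusted p of the slope 0.0866).

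The fibroblast count depended on single libraries. It lay between 1 and 7 when each library was left out in turn, and was 7 without βKlf6KO saline replicate 2 or without control saline replicate 4, when 2674 and 2604 of all genes were also called. It was 4 without βKlf6KO S961 replicate 8 and 3 without control S961 replicate 7, with 190 and 150 of all genes, against 140 with every library in. Without the 3 libraries that stand apart, Tpm2 (adjusted p = 0.00994), Pdgfra (adjusted p = 0.0447) and Oat (adjusted p = 0.0454) passed. With the first principal component of the deviations (described below) removed, Tpm2 (adjusted p = 0.00308), Pdgfra (0.0120), Oat (0.0164) and Igfbp4 (0.0343) passed. Slc16a1 did not follow the fibroblast mean detectably, with r = 0.062 (permutation p = 0.783) and rho = 0.070 (permutation p = 0.742), and Igf1 had r = 0.235 (permutation p = 0.287) and rho = 0.275 (permutation p = 0.183).

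With the macrophage mean the 6 genes that passed were Tpm2, Fcgrt, Ldha, Acot7, Oat and Cxcl12. Tpm2 had r = 0.699 (permutation p = 0.00018) and rho = 0.683 (permutation p = 0.00027), 0.689 without the 2 farthest libraries and 0.66, 0.69, 0.61 and 0.79 within lanes, and an adjusted p of the slope of 0.00825. Fcgrt had r = 0.691 (permutation p = 0.00014) and rho = 0.736 (permutation p = 5e-05), 0.667 without the 2 farthest and 0.88, 0.79, 0.79 and 0.60 within lanes (adjusted p = 0.0122). Ldha had r = 0.634 (permutation p = 0.00025) and rho = 0.647 (permutation p = 0.00056), 0.620 without the 2 farthest and 0.69, 0.78, 0.88 and 0.61 within lanes (adjusted p = 0.0220). These 3 also passed with lane in the fit, while the other 3, with adjusted p values of 0.0381 for Acot7, 0.0451 for Oat and 0.0493 for Cxcl12, did not. The count was 2 without βKlf6KO S961 replicate 8 or without control S961 replicate 1 or 2, and 3 without any of βKlf6KO S961 replicates 1, 4 and 6, βKlf6KO saline replicate 6 and control saline replicates 4 and 5. The count over all genes was also lower, at 192, 184 and 192 in the 3 settings that left 2 and between 225 and 425 in those that left 3, against 1416 with every library in. Without the 3 libraries that stand apart Igf1 (adjusted p = 0.0146), Ldha (0.0443) and Tpm2 (0.04999, just under the threshold) passed, and with the first component of deviations removed 0 did.

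**Figure D4:**
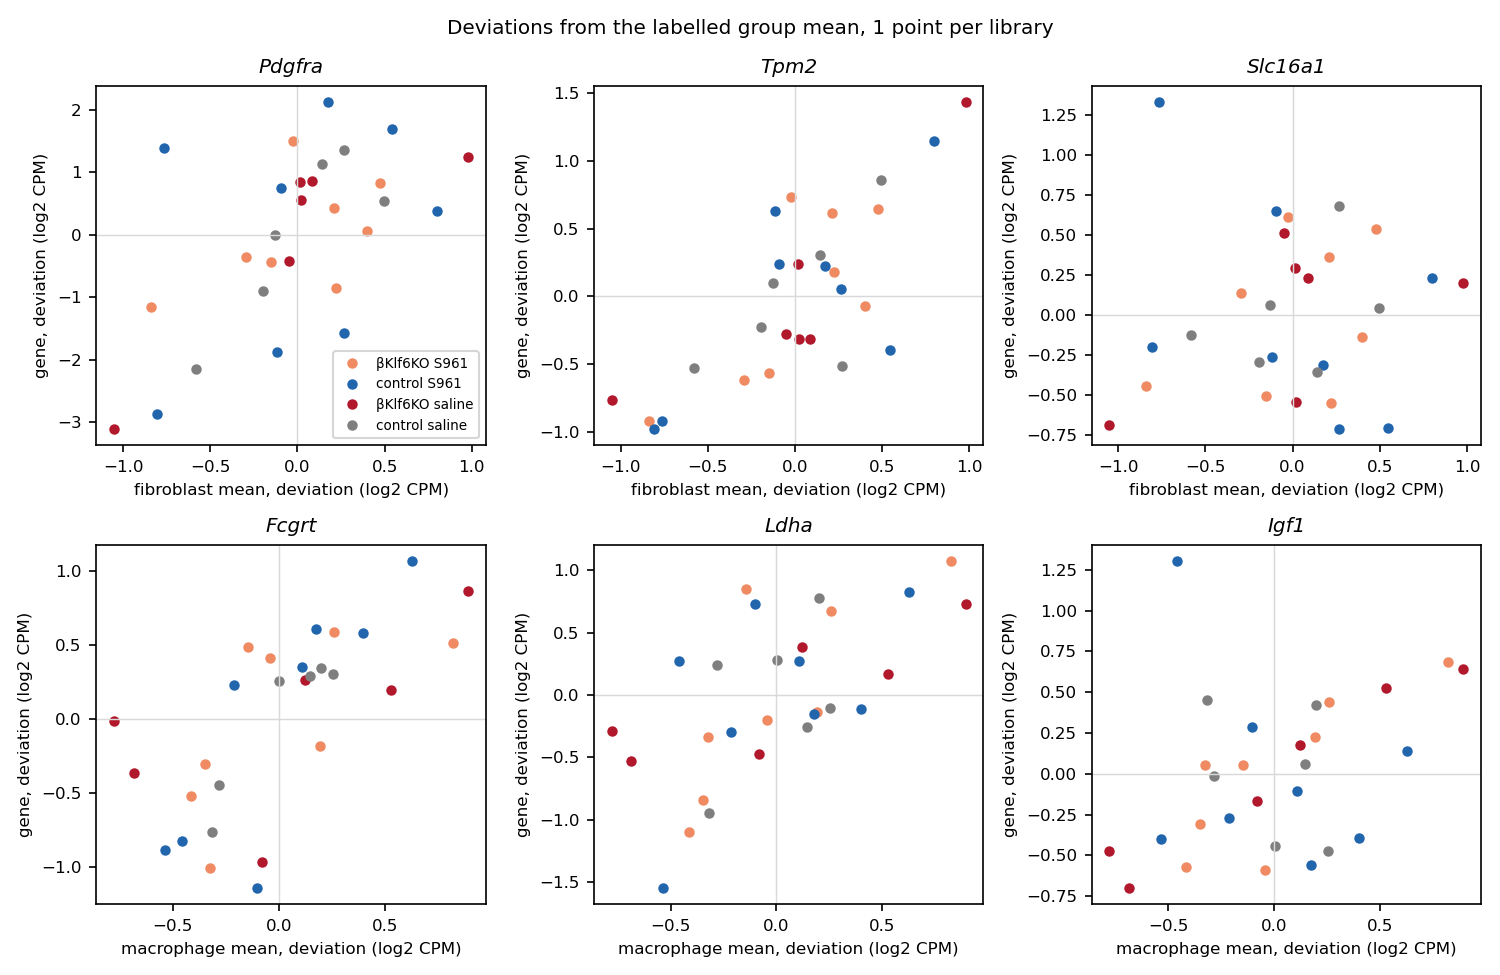
Deviation of 6 of the genes from the labelled group mean in log2 CPM (vertical axes) against the deviation of the fibroblast mean (upper row) or the macrophage mean (lower row), with 1 point per library coloured by group. Tpm2 and Fcgrt rise along their marker mean, Slc16a1 shows little slope (r = 0.062), and 1 control S961 library lies high above the others in the Slc16a1 and Igf1 panels.

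Of the remaining relations, Pdgfra followed the lymphocyte mean, with r = 0.647 (permutation p = 0.00011) and rho = 0.643 (permutation p = 0.00017), 0.613 without the 2 farthest libraries, and 0.77, 0.86, 0.11 and 0.58 within lanes (adjusted p = 0.0294). It was the only one of the 10 to pass for that list, beside 0.876% of all genes. The call was lost with lane in the fit (adjusted p = 0.0717), on ranks (0.212), without the 2 farthest libraries (0.166), and without any of βKlf6KO S961 replicate 8, control S961 replicate 4 and βKlf6KO saline replicates 2, 3 and 6. For the endothelial mean 2 passed, beside 21% of all genes. They were Fcgrt (r = 0.578, permutation p = 0.00458; rho = 0.587, permutation p = 0.00337) and Tpm2 (r = 0.458, permutation p = 0.0218; rho = 0.502, permutation p = 0.0124), with adjusted p values of 0.0349 and 0.0485. Without the 2 farthest libraries these r were 0.663 and 0.544, and within lanes 0.81, 0.79, 0.67 and 0.39 for Fcgrt and 0.62, 0.84, 0.63 and 0.46 for Tpm2. When each library was left out in turn the counts ranged over 0 to 2 for lymphocyte and 0 to 4 for endothelial markers, and the endothelial count was 0 without any of βKlf6KO S961 replicate 4 and control S961 replicates 1, 2, 5 and 8. The endothelial count was 5 without the 2 farthest libraries (3642 of all genes) and 4 with lane in the fit (4119), but 0 on ranks (43), with the first component of deviations removed (105) and without the 3 libraries that stand apart (23).

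The first principal component was also taken from the deviations. The sign of a component is arbitrary, and this one runs opposite to the component of the libraries given above: control S961 replicate 2, control saline replicate 4 and control S961 replicate 8 lay lowest on it, and over 13584 genes the correlation with it had a Spearman correlation of 0.824 with transcript GC content. Acot7 followed it more closely than any marker mean, with r = 0.869 and rho = 0.845 (permutation p = 1e-05 each), 0.762 without the 2 farthest libraries, and 0.87, 0.98, 0.88 and 0.77 within lanes. Acot7 transcripts have 56.2% GC, the highest of the 10. Fcgrt (r = 0.688, permutation p = 0.00025; rho = 0.695, permutation p = 0.00038), Ldha (r = 0.651, permutation p = 0.00079; rho = 0.600, permutation p = 0.00128) and Tpm2 (r = 0.637, permutation p = 0.00031; rho = 0.626, permutation p = 0.00106) also moved with it. So did much of the table: 23.1% of all tested genes had a correlation with this component at least as high as that of Acot7, and 32.0% to 33.7% at least as high as those of Fcgrt, Ldha and Tpm2. Slc16a1, whose transcripts have 42.9% GC, had r = -0.270 (permutation p = 0.244) and rho = -0.206 (permutation p = 0.333).

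The genotype differences were then refitted with the fibroblast and macrophage means as added terms. No gene of the 10 passed in either treatment, and among all genes 0 passed after S961 and 56 after saline. After S961 the Tpm2 difference was 0.08, against 1.16 without the terms, and Oat was at 0.03, against 0.37. Igf1 had the largest positive difference, 0.68 against 0.90 (adjusted p = 0.888), followed by Slc16a1 at 0.53 against 0.58 and Cxcl12 at 0.50 against 0.98. Pdgfra was at -0.73 and Igfbp4 at -0.40, below 0. After saline Oat was at 0.23, against 0.54 (adjusted p = 0.696), Igfbp4 at 0.82, against 1.70, and Pdgfra at 0.63, against 1.84, and the other 7 were below 0. The list means themselves differed with the labels, at 3.03 ± 0.43 log2 CPM for fibroblast markers in βKlf6KO and 1.93 ± 0.57 in control islets after S961 (SD, n = 8 each), so the part of a difference that goes with genotype and the part that goes with these cells cannot be told apart.

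**Figure D5:**
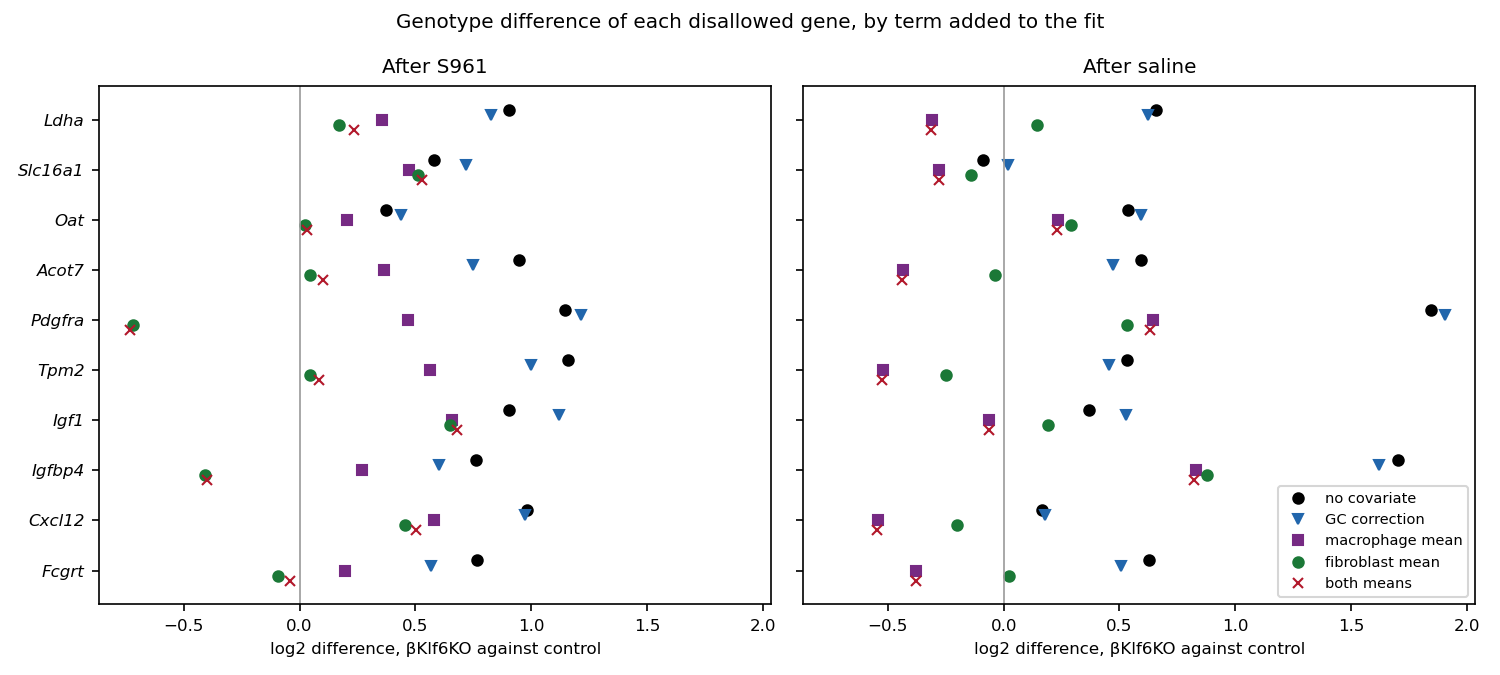
Genotype difference in log2 units (horizontal axes) of each of the 10 genes with no added term, after a correction for transcript GC content, and with the macrophage mean, the fibroblast mean or both in the fit. With both means Tpm2 lies at 0.08 after S961, while Igf1 stays at 0.68 and Slc16a1 at 0.53; the GC-corrected points stay near those with no added term.

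A correction for transcript GC content, in contrast, called more of the genes after S961, but not after saline. After S961 it called 7 of the 10, Igf1 (adjusted p = 0.00880), Tpm2 (0.0108), Cxcl12 (0.0328), Oat (0.0354), Acot7 (0.0362), Ldha (0.0416) and Slc16a1 (0.0477). Of all 13591 genes it called 2551 there, 1191 of them higher. After saline it called Oat alone (adjusted p = 0.0247), the gene also called without the correction. Of all 13591 genes it called 1370 there, 785 of them higher.

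The genes most like each of the 10, by the Pearson correlation of within-group deviations over 28 libraries, were shared between members for Pdgfra and Igfbp4 alone. Pdgfra was closest to Dcn (0.852), Anxa1 (0.777) and Fn1 (0.716), and Igfbp4 to Dcn (0.787), Fn1 (0.777) and Col3a1 (0.764), where Dcn, Fn1 and Col3a1 encode the matrix proteins decorin, fibronectin and collagen III. Fcgrt was closest to C1qb (0.883), C1qc (0.843) and Pla2g16 (0.822), the C1q genes being complement genes of macrophages. Tpm2 was closest to Cnn2 (0.863), Serpinh1 (0.863) and Itga5 (0.859), which encode a calponin, a collagen chaperone and an integrin. Slc16a1 was closest to Lmo4 (0.930), Sh2d4a (0.926) and Rai14 (0.910), Igf1 to Tgfbr2 (0.933), Msrb3 (0.902) and Coq3 (0.897), and Cxcl12 to Nek6 (0.921), Map4k4 (0.914) and Lgals9 (0.914). Ldha was closest to Myl12a (0.951), Csrp2 (0.949) and Anxa2 (0.946), Acot7 to Fads2 (0.958), Tspan4 (0.956) and Mapk13 (0.956), and Oat to Slc30a6 (0.820), Cmtm3 (0.802) and Rbmxl1 (0.791).

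Other lists were read for the cells and states these libraries could differ in. Of 12 proliferation genes 5 were higher in βKlf6KO islets after S961 and 12 after saline. S961 against saline called 0 of the 12 in either genotype, with medians of -0.94 in βKlf6KO and 0.72 in control islets. In βKlf6KO islets the mean of this list was 1.82 to 2.49 log2 CPM after S961 and 2.71 to 3.45 after saline. In control islets it was -0.69 to 2.98 after S961 and -0.75 to 1.44 after saline. Of 8 ductal markers 1 was higher after S961, Spp1 at 1.16, and 0 after saline. The 10 acinar markers, with a median of 0.96 after S961, the 4 listed Schwann-cell markers and the 8 markers of α, δ and PP cells had 0 calls in either genotype comparison. The part of these differences in the levels of the 10 genes was not tested.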

How the data were processed

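The authors deposited log2 CPM values in 1 table of 28 libraries. The submitters' processing notes name STAR 2.5.3a, HTSeq 0.9.1, edgeR and the build GRCm38, with no role or order. Per the labels' protocols, stranded poly(A) libraries were read as 125-base single ends. The deposited log2 values were those of reads plus 0.5 over a scaled library, and 100% of them came out as whole reads, within 0.05, when this was undone. At 28868638 to 45001633 reads per library, a count of 0 allows up to 3 reads, or 0.0685 to 0.105 CPM, for counting error only. Each library was a separate mouse, and no pair of libraries within a group agreed within sampling noise (over 86 pairs, chi-square divided by its degrees of freedom was at least 32.3).

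The filter asked for 1 CPM or more in 6 or more libraries and kept 13591 of 14219 genes. Group means of all 28 libraries were fitted with limma 3.58.1 in R 4.3.3, with an intensity trend, as 5 two-sided contrasts. Calls needed an adjusted p below 0.05 (Benjamini-Hochberg, over all genes kept), and every adjusted p here is from limma. Levels per kilobase used the union of GENCODE M21 exons, the source of the coordinates on GRCm38. Marker-list means excluded the 10 genes and lists used genes that passed the filter. Correlations used Python 3.11.15 with numpy 2.4.6 and pandas 2.3.3, and figures matplotlib 3.10.9. A Benjamini-Hochberg adjustment over the 40 relations had been planned, and the adjusted p of the limma slope over all genes is given in its place. The fits were tested on simulated data.

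Named genes were the 10, Klf6, Ins1 and Ins2, the 3 called members of smallest p, or fewer, of each other list, or, for lists with none called, the 1 with the smallest p, and the 3 genes most like each of the 10 among named genes of at least 4 CPM on average. The members and lists were chosen with earlier results of these data known. Ins1 differed by -0.31 after S961 (adjusted p = 0.674) and 0.55 after saline (adjusted p = 0.712), and Ins2 by 0.31 (adjusted p = 0.752) and 0.21 (adjusted p = 0.930). The alternatives were other filters, moderation, weights and scalings, lane or replicate number in the fit, marker means, the first component or GC content as corrections, and each library left out. Voom weights, each marker mean alone, and lane in the relation fit were chosen after seeing the data.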

Additional observations from a re-analysis of the deposited data

Results flagged for a closer look

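In control islets after S961, Igf1 was far higher in replicate 8 than in the other 7 libraries, at 2.95 log2 CPM against 1.94 in the next highest. It was the only such value among 40 groups checked, 10 genes in 4 labelled groups, and chance gives about 1 in 20. The same library held the highest Slc16a1 value of all 28 and is 1 of the 3 that stand highest on the first component. Without those 3, the Igf1 difference after S961 was 1.05 (adjusted p = 0.00958).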

How the results depend on the processing

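All 10 genotype differences after S961 stayed positive under the alternatives without marker means, and 9 of 10 after saline. The number of the 10 genes called after S961, 2 as reported, was 1 with a filter at 5 CPM (which leaves 7 of the 10), a floor at 1 CPM, library weights, median centring or without the 3 libraries, 0 in a fit of only the groups compared (35 of all genes), with quantile scaling or with the fibroblast mean, the macrophage mean or both, 4 with the first component as a term (3829 of all genes) and 7 with the GC correction (2551 of all genes). After saline, 1 as reported, it was 0 with the filter at 5 CPM, the floor, robust moderation, only the groups compared, the replicate block, median centring, quantile scaling, voom weights or either or both marker means, 4 with library weights (3018 of all genes), 2 without the 3 libraries (690 of all genes) and 2 with the first component (2821 of all genes). With each library left out it was 0 to 3 after S961, 0 to 2 after saline and 0 for the S961 comparisons. The cause of these changes was not tested.

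The fibroblast count, 1 as reported (140 of all genes), was 9 without centring on group means (2527), 0 on ranks (24), 3 without the 2 farthest libraries (99), 3 without the 3 libraries (130), 4 with the first component of deviations removed (315) and 1 to 7 with each library left out. The macrophage count, 6 as reported (1416), was 9 without centring (3486), 3 without the 3 libraries (273), 0 with the first component of deviations removed (356), 3 with lane in the fit (238) and 2 to 6 with each library left out.

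Signs turned mainly with marker means in the fit. After saline with both means Ldha was at -0.31, Igf1 -0.063, Tpm2 -0.53, Cxcl12 -0.545, Acot7 -0.44 and Fcgrt -0.38, with the macrophage mean alone -0.31, -0.063, -0.52, -0.54, -0.43 and -0.38, and with the fibroblast mean alone Tpm2 was at -0.25, Cxcl12 -0.20 and Acot7 -0.037. After S961 Pdgfra was at -0.73 with both and -0.72 with the fibroblast mean, Igfbp4 -0.40 and -0.41, and Fcgrt -0.040 and -0.094. Slc16a1 after saline was 0.12 with library weights, 0.047 without the 3 libraries, 0.017 with the GC correction and -0.19 to 0.049 with each library left out.

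None of the S961 differences was called. In βKlf6KO islets Ldha was 0.0041 with lane, 0.085 with the first component, 0.20 with both means and 0.29 with the macrophage mean, Acot7 0.043, 0.066, 0.040 and 0.24 with library weights, the first component, both means and the macrophage mean, Igfbp4 0.0094 and Fcgrt 0.13 with the macrophage mean, and Tpm2 -0.084 with the fibroblast mean. In control islets Pdgfra was -0.18 and Oat -0.0153 with the replicate block, and Fcgrt 0.038 with the floor. The difference of responses of Fcgrt was -0.13 with the floor and -0.12 with the fibroblast mean. The slope of Slc16a1 on the fibroblast mean was -0.0326 with lane. With each library left out, these ran over -0.16 to 0.15 for Ldha, -0.24 to 0.14 for Acot7 and -0.55 to 0.025 for Igfbp4 in βKlf6KO islets, -0.24 to 0.60 for Pdgfra and -0.0029 to 0.12 for Oat in control islets, -0.053 to 0.31 for the Fcgrt response difference and -0.091 to 0.27 for the Slc16a1 slope.

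Of 875 values of the 10 genes under alternatives that kept every library or left out the 3, 797 kept their direction and side of the threshold, 40 turned, 25 lost and 13 gained a call. Of 138 slopes the numbers were 93, 1, 25 and 19. Same-numbered libraries correlated between -0.71 and 0.56 in their deviations. A component shared by many genes enters these correlations, so they cannot settle whether replicate numbers pair the samples. After S961, same-numbered βKlf6KO and control libraries had the same lane number. With the replicate block 3 of the 10 were called after S961, Igf1, Tpm2 and Cxcl12, and 0 after saline. Depth was not equal in effect for all 10: Fcgrt, Igfbp4, Pdgfra, Tpm2 and Acot7 fell below 1 CPM in some libraries.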
